A study of Mus musculus with 208 samples.

Results

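Among the R1 mouse embryonic stem (ES) cell libraries treated with Activin A or bFGF, 15 libraries with high levels of 4 fibroblast genes were set against 15 libraries with low levels of them. The 4 genes were Col1a1 and Col1a2, which encode the chains of type I collagen, Col3a1, which encodes type III collagen, and Dcn, which encodes decorin, a small proteoglycan that binds collagen fibrils. Each library was given a score, the mean over the 4 genes of log2(CPM + 1), where CPM (counts-per-million) is a gene's count scaled to the total of its library. Libraries were thus chosen by the measured levels of these genes. Within each morphogen the third of the libraries with the highest scores formed the high group, and the third with the lowest scores formed the low group. That gave 7 high and 7 low libraries of 23 with Activin A, and 8 high and 8 low libraries of 24 with bFGF. The 30 libraries are 14.4% of the series.

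Because the groups were made from these libraries' own values, the comparison asks which genes go with the sorting genes. It is no test of a treatment, and the sorting genes themselves are given as values with no test. The same sorting in blocks of libraries that did not enter the grouping is given separately.

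All these cells were R1, a male mouse ES cell line, grown free of feeder cells, in an N2B27 medium that held the inhibitors PD184352 (of MEK), CHIR99021 (of GSK3) and SU5402 (of the FGF receptor). Each culture then received 1 small molecule for 30 h and a morphogen for 24 h, Activin A at 20 ng/ml or bFGF at 6 ng/ml. Every combination was sequenced as 1 library, and none of the sorted libraries lacked a small molecule, so a compound and its library cannot be told apart. Poly-A RNA was sequenced single-end.

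The high libraries with Activin A had received Docetaxel (2.5 nM), Wnt agonist (40 nM), PD173074 (600 nM), Genistein (10 µM), LDN-193189 (600 nM), 10058-F4 (12.5 µM) or Valproic Acid (25 µM). The low libraries with Activin A had received KAAD-Cyclopamine (600 nM), Purmorphamine (130 nM), DAPT (2.5 µM), BAY 11-7082 (20 µM), SU5402 (2 µM), SB202190 (1 µM) or BAPTA-AM (4 µM). The high libraries with bFGF had received Bix01294 (250 nM), Wnt agonist (40 nM), Docetaxel (2.5 nM), Y-27632 (20 µM), LDN-193189 (600 nM), Dorsomorphin (1 µM), CHIR99021 (3 µM) or BAY 11-7082 (20 µM). The low libraries with bFGF had received BAPTA-AM (4 µM), Wortmannin (80 nM), Genistein (10 µM), DAPT (2.5 µM), SU5402 (2 µM), PD173074 (600 nM), 10058-F4 (12.5 µM) or Olomoucine (30 µM).

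Fibroblasts are mesenchymal cells that build the fibrous matrix of connective tissue. They secrete fibrillar collagens, which are trimmed outside the cell, cross-linked by lysyl oxidases and bound by small leucine-rich proteoglycans, and they remodel the matrix with metalloproteinases. ES cells are held in a pluripotent state by Pou5f1 and Sox2 and normally express little of this matrix. A small and changing minority of cells in ES cultures passes through a state marked by the Zscan4 genes, which resembles the 2-cell embryo in part of its expression.

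Library totals ranged from 13984922 to 26953833 counts over the 47 sorted libraries, so that 3 counts, the limit that a count of 0 allows, were 0.111 to 0.215 CPM. Between 14386 and 15214 genes reached 1 CPM in the high libraries with Activin A, against 13743 to 14219 in the low ones. With bFGF the numbers were 14185 to 15385 in high libraries and 13705 to 14517 in low libraries. The Y-linked gene Eif2s3y lay above 30 CPM in 46 of the 47 sorted libraries and in all 30 compared. The exception, with Y-27632 and Activin A, had a middle score and 5.4 CPM. Outside this comparison Eif2s3y lay under 30 CPM in 18 of 24 libraries labelled R1 with BMP4 and 20 of 24 labelled R1 with retinoic acid, and over it in 14 of 19 labelled JM8.N4 with BMP4 and 15 of 19 labelled JM8.N4 with retinoic acid. All 14 libraries labelled JM8.N4 with Activin A, all 18 with bFGF and all 14 in N2B27 lay under 30 CPM. All 3 labelled JM8.N4 mock lay over it, as did all 3 labelled R1 mock. The line labels of most BMP4 and retinoic acid libraries, and of the JM8.N4 mock libraries, thus go against this gene. Those labels may be exchanged, or the gene may not mark the line in every condition, which was not tested. Spry4, a feedback target of FGF receptor signalling, was at 1.05 CPM in the PD173074 library labelled Activin A and at 43.9 CPM in the PD173074 library labelled bFGF, and PD173074 is an FGF receptor inhibitor.

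The scores of the high libraries with Activin A ran from 4.70 with Valproic Acid to 5.81 with Docetaxel, with a median of 5.07. Those of the low libraries with Activin A ran from 0.193 with BAPTA-AM to 1.16 with KAAD-Cyclopamine, with a median of 0.275. The nearest libraries that fell outside were CHIR99021 at 4.55 and Olomoucine at 1.18. With bFGF the high libraries ran from 4.71 with BAY 11-7082 to 6.195 with Bix01294, with a median of 5.24, and the low libraries from 0.149 with Olomoucine to 4.00 with BAPTA-AM, with a median of 0.330. The low group with bFGF thus held 2 libraries, BAPTA-AM at 4.00 and Wortmannin at 3.83, that lay nearer to the high group than to the other 6 low libraries, which had 0.389 or less. The libraries just outside with bFGF were Purmorphamine at 4.7 and BIO at 4.15.

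**Figure D1:**
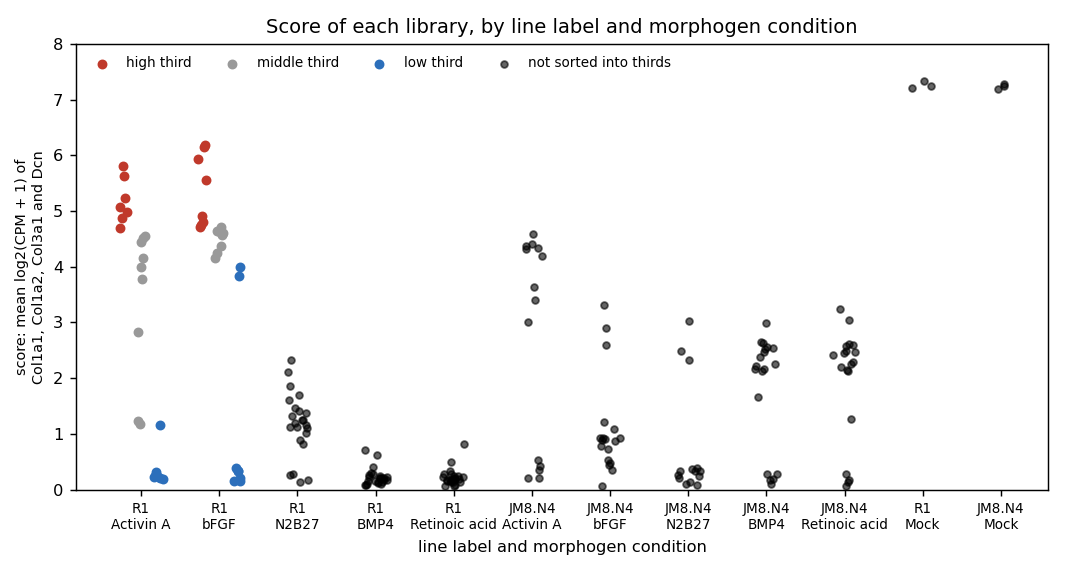
Score of every library of the series (mean of log2(CPM + 1) over Col1a1, Col1a2, Col3a1 and Dcn, y axis) by cell line label and morphogen condition (x axis), with the high group in red, those between in grey, the low group in blue and libraries that were not sorted in black. The sorted R1 libraries lay mostly over 3.5 or under 1.5, and the mock libraries of both line labels lay highest. Libraries labelled R1 with BMP4 or retinoic acid, most of which have the Eif2s3y level of the other line, lay under 1.

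Scores fell into bands. Of the 23 Activin A libraries 13 lay over 3.5 and 9 under 1.5, and of the 24 bFGF libraries 18 lay over 3.5 and 6 under 1.5. The libraries labelled mock for both compound and morphogen stood above all sorted libraries, with a median of 7.25 (range 7.22 to 7.34) in R1. R1 libraries with a compound but no morphogen, in N2B27 alone, had a median of 1.20 (0.128 to 2.33), and those labelled R1 with BMP4 or retinoic acid had medians of 0.204 and 0.198. Libraries labelled JM8.N4 had medians of 2.21 with BMP4 and 2.28 with retinoic acid, and as most libraries of these 4 groups have the Eif2s3y level of the other line, their line labels may be exchanged.

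Some compounds lay in different bands with Activin A and with bFGF, each as 1 library, and the part of the compound in the score was not tested. Of 23 compounds sequenced with both morphogens, 10 lay over 3.5 with both and 3 under 1.5 with both. PD173074, Genistein and 10058-F4 lay over 3.5 with Activin A and under 1.5 with bFGF. BAPTA-AM, BAY 11-7082, Dorsomorphin, KAAD-Cyclopamine, Purmorphamine and SB202190 did the opposite, over 3.5 with bFGF and under 1.5 with Activin A. The correlations that follow are a description, with no test, since these scores sorted the libraries. Among the 10 compounds over 3.5 with both, the scores with Activin A and bFGF had a Pearson r of 0.960 and a Spearman rho of 0.939. Without the 2 compounds farthest from the median r was 0.891. These 10 were picked by the scores that were correlated, and compounds in opposite bands were left out. The r thus does not describe all 23 compounds. Against the score of the same compound in N2B27 alone, r was 0.528 for the 13 Activin A libraries over 3.5 and 0.434 for the 17 bFGF libraries over 3.5 that have one. Against the library total r was 0.168 for 13 Activin A and −0.504 for 18 bFGF libraries over 3.5, and against the library number 0.235 and 0.092. Docetaxel, Wnt agonist and LDN-193189 were in the high group with both morphogens, and DAPT, SU5402 and BAPTA-AM were in the low group with both.

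Col1a1 was at 95.4 CPM with Docetaxel, 90.9 with Wnt agonist, 90.4 with PD173074, 53.3 with Genistein, 51.4 with LDN-193189, 48.997 with 10058-F4 and 49.9 with Valproic Acid in the high libraries with Activin A. In the low libraries with Activin A it was at 1.43 CPM with KAAD-Cyclopamine and at 0.186 to 0.483 CPM in the other 6. With bFGF, Col1a1 ranged from 40.3 CPM with Dorsomorphin to 114.4 CPM with Wnt agonist in high libraries. In low libraries it was at 23.1 CPM with BAPTA-AM, 19.1 with Wortmannin and 0.116 to 0.366 in the other 6. Col1a1, Col1a2 and Col3a1 separated the groups fully with both morphogens.

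Col1a2 ranged from 55.05 to 121.4 CPM in high against 0.116 to 1.43 CPM in low libraries with Activin A, and from 48.6 to 166.7 against 0.0781 to 41.7 CPM with bFGF. Col3a1 ranged from 32.8 to 82.7 against 0.0928 to 3.20 CPM with Activin A, and from 30.9 to 106.6 against 0.0582 to 16.6 CPM with bFGF. Dcn was lower throughout, at 3.77 to 9.14 against 0 to 0.149 CPM with Activin A and 4.57 to 50.1 against 0 to 5.29 CPM with bFGF, with its top value in the Bix01294 library. In R1 mock libraries the medians were 173 CPM for Col1a1, 214.5 for Col1a2, 258 for Col3a1 and 55.995 for Dcn.

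**Figure D2:**
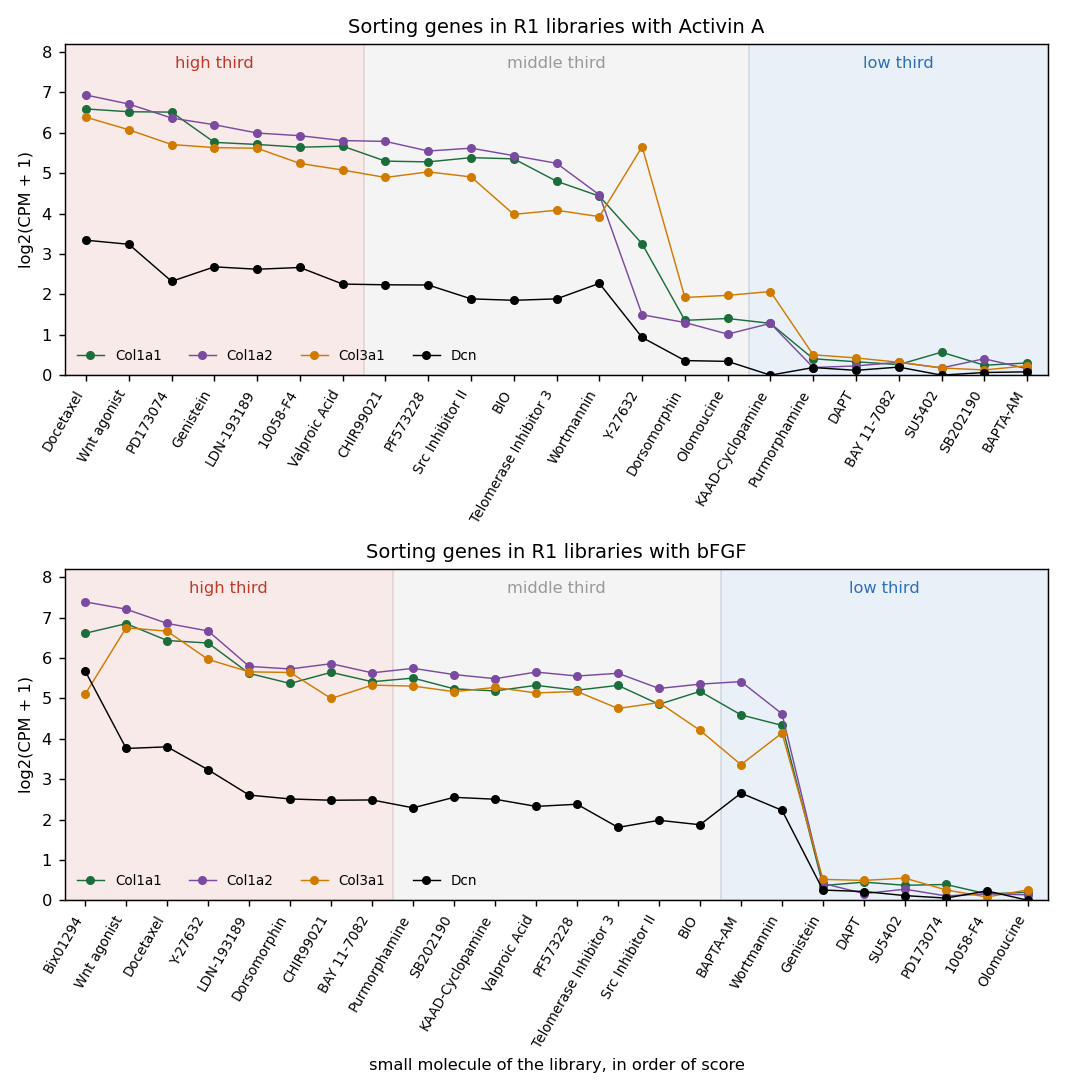
Level of Col1a1, Col1a2, Col3a1 and Dcn (log2(CPM + 1), y axis) in each of the 23 Activin A and 24 bFGF libraries, in the order of their score and named by small molecule (x axis). The genes move together from library to library, with a step between the high and low ends in both panels, and BAPTA-AM and Wortmannin with bFGF stand above the other low libraries.

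The 150 bases upstream of the RefSeq start of 2 sorting genes (GRCm38.p6, plus strand, 5′ to 3′) are shown because these genes rise and fall together across the libraries. Col1a2 (chr6:4505468-4505617) is printed with a CCAAT in capitals, and Col3a1 (chr1:45311388-45311537) with a TATAAA in capitals. On either strand CCAAT was found in 24.5% and TATAAA in 7.57% of 32851 windows of this length. A match is a description of the letters and not a binding site.
Col1a2: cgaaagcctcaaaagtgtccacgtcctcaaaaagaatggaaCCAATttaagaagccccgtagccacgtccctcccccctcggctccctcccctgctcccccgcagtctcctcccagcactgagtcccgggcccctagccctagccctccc
Col3a1: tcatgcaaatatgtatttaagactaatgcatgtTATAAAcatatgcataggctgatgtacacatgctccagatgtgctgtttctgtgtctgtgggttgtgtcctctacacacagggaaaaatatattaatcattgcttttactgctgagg

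A gene was called when edgeR's quasi-likelihood test, averaged over the contrasts within Activin A and within bFGF, gave a Benjamini-Hochberg adjusted p under 0.05 with a change of at least 2-fold and the same sign with both morphogens. Of 15348 genes tested besides the sorting genes, 1461 (9.52%) were called, 1345 of them (8.76% of the genes tested) higher and 0.756% of the genes tested lower in the high libraries. Within Activin A alone 1720 (11.2%) were called, 1613 (10.5%) higher and 0.697% lower. Within bFGF alone 1194 (7.78%) were called, 1027 (6.69%) higher and 1.09% lower. Of the genes called within each morphogen 880 were shared in the same direction, 51.2% of those of Activin A and 73.7% of those of bFGF, and 0 were opposite. No gene was called for a difference between the Activin A and bFGF contrasts by edgeR, limma-voom or DESeq2, with 691, 405 and 729 genes at an unadjusted p under 0.05. Without the Docetaxel, Wnt agonist and Bix01294 libraries 645 genes were called for the mean of both morphogens. The median change of all genes was −0.01 on the log2 scale. These are bulk RNA samples, in which fewer cells of a type and less RNA per cell cannot be told apart.

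Periostin, a matrix protein of connective tissue, shows how the groups differed. Postn ranged from 2.78 to 8.70 CPM (median 4.90) in high libraries and from 0 to 0.0753 CPM (median 0) in low libraries with Activin A. With bFGF it ranged from 3.13 to 21.7 CPM (median 4.69) in high libraries and from 0 to 3.25 CPM (median 0.0691) in low libraries. The groups did not overlap with Activin A and overlapped narrowly with bFGF, where the top low library lay just above the lowest high one. The fitted change was 5.61 ± 0.62 (log2, SE; adjusted p = 8.6e-09), and 6.31 without the low BAPTA-AM library with bFGF. Complete separation of the groups was found for 1011 genes (6.59%) higher and 534 (3.48%) lower with Activin A, and for 71 (0.463%) higher and 5 (0.0326%) lower with bFGF.

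Of 23 further collagen and matrix fibre genes tested, 17 were called higher and 0 lower, against 8.76% and 0.756% of all genes, with a median change of 2.12. The called genes included the type V chain Col5a1, which starts collagen fibrils. It ranged from 37.5 to 70.8 CPM (median 43.5) in high against 8.63 to 11.7 CPM (median 9.46) in low libraries with Activin A, and from 33.9 to 85.4 CPM against 7.63 to 23.8 CPM with bFGF. The Col5a1 groups separated with both morphogens, and its change was 2.12 ± 0.17 (adjusted p = 3.4e-12). Larger changes were fitted for the type VI chains Col6a1 (4.99 ± 0.51) and Col6a2 (4.47), for Col12a1 (3.98), which coats collagen fibrils, and for the fibulin gene Fbln2 (4.12).

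Tenascin C, a matrix protein of embryonic and wounded connective tissue, was encoded by one of the strongest genes. Tnc ranged from 14.1 to 35.003 CPM in high against 0.0464 to 0.716 CPM in low libraries with Activin A, and from 6.35 to 264 CPM against 0 to 13.7 CPM with bFGF, with a change of 5.12 ± 0.68. It was 4.43 without the high Bix01294 library and 5.83 without the low BAPTA-AM library with bFGF. Fibronectin did not follow this pattern. Fn1 was abundant in every library, at 758 to 1833 CPM in high against 864 to 1322 CPM in low libraries with Activin A and 718 to 1779.5 against 799 to 1076 CPM with bFGF, and its change of 0.04 ± 0.11 did not pass (adjusted p = 0.78). The mesenchymal filament gene Vim was at −0.36 ± 0.09, under the fold required.

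Of the 5 small proteoglycan genes tested, Bgn and Lum were called higher and 0 lower. Biglycan, a relative of decorin, was at 22.4 CPM or more (median 25.4) in high against 0 to 0.490 CPM in low libraries with Activin A, and at 13.7 to 122 against 0 to 21.6 CPM with bFGF, where the groups overlapped. Its change was 5.25 ± 0.70 (adjusted p = 2.4e-07), and 6.00 without the low BAPTA-AM library with bFGF. Lum, which encodes lumican, stayed low in counts, at 0.928 to 3.74 CPM against 0 to 0.0753 CPM with Activin A, and was fitted at 5.04 ± 0.49. The large proteoglycan gene Vcan was at 0.39 and was not called.

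Among 19 genes of collagen processing, 10 were called higher and 0 lower, with a median of 1.07. Lox encodes lysyl oxidase, which cross-links collagen. It was at 20.0 to 43.8 CPM in high against 0 to 0.414 CPM in low libraries with Activin A, and at 9.80 to 200.2 against 0 to 31.9 CPM with bFGF (5.04 ± 0.78, adjusted p = 2.0e-06), and its change was 5.81 without the low BAPTA-AM library with bFGF. Also called were Bmp1, the procollagen C-proteinase (2.87), P4ha2, a prolyl hydroxylase subunit (2.86 ± 0.37), Loxl2 (2.46 ± 0.35) and the collagen chaperone Serpinh1 (1.11, and 0.98 and not called without the Bix01294 library). Pcolce (−0.44) and Plod3 (−0.05) were among the 9 that were not called.

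Of 13 matricellular and growth factor genes tested, 11 were called higher and 0 lower, with a median of 1.89. Thrombospondin 1, encoded by Thbs1, was at 55.9 to 120.5 CPM in high against 0.279 to 1.78 CPM in low libraries with Activin A, and at 26.99 to 160.2 against 0.326 to 60.1 CPM with bFGF (4.36 ± 0.63, and 4.97 without the low BAPTA-AM library with bFGF). The macrophage growth factor gene Csf1 (4.05, and 2.98 without the Bix01294 library and 4.77 without that BAPTA-AM library), the IGF binding protein gene Igfbp5 (3.13) and Ccn4 (2.93) were called as well, while Sparc, a collagen-binding protein, was at 0.66 and Pdgfc at 0.18. Pappa, a secreted protease that cuts IGF binding proteins, was not on that list and was among the 12 genes with the largest changes (5.01 ± 0.57).

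Of 15 matrix protease and inhibitor genes, 11 were called higher and 0 lower, with a median of 1.76. Mmp3, which encodes stromelysin 1, had the largest change of all genes at or above a mean log2 CPM of 1. It ranged from 2.23 to 10.7 CPM (median 4.89) in high against 0 to 0.129 CPM (median 0) in low libraries with Activin A, and from 4.30 to 79.5 CPM against 0 to 1.12 CPM with bFGF. The Mmp3 groups did not overlap with either morphogen, and the change was 6.56 ± 0.70 (adjusted p = 6.3e-09), and 7.17 without the low Wortmannin library with bFGF.

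The collagenase gene Mmp13 was fitted at 6.36 ± 0.96 (adjusted p = 1.3e-06), but most of that size came from 1 library. It ranged from 0.281 to 1.76 CPM in high against 0 to 0.151 CPM in low libraries with Activin A. With bFGF it was at 282 CPM with Bix01294, at 2.75 CPM or less in the other 7 high libraries and at 0 to 0.301 CPM in low libraries. Without the Bix01294 library the change was 4.08, and Mmp13 was still called. Adamts5 (3.83) and the inhibitor Timp2 (2.41) were called, at 4.46 and 3.02 without the low BAPTA-AM library with bFGF, and Timp1 (−0.05) was not.

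The upstream 150 bases of both metalloproteinase genes are shown with a TGANTCA motif in capitals, the letters bound by AP-1 factors. The Mmp3 window (chr9:7445672-7445821, GRCm38.p6, plus strand) has TGAGTCA 46 bases before the RefSeq start, and the Mmp13 window (chr9:7272364-7272513, plus strand) has TGACTCA 35 bases before it. TGANTCA was found in 4.24% of the 32851 windows, and nothing about the factors in these cells is drawn from it.
Mmp3: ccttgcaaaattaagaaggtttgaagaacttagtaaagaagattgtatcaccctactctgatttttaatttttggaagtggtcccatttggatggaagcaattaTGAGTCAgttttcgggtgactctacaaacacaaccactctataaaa
Mmp13: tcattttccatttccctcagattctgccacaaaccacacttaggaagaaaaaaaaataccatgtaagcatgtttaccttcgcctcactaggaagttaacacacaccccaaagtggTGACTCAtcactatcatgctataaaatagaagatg

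**Figure D3:**
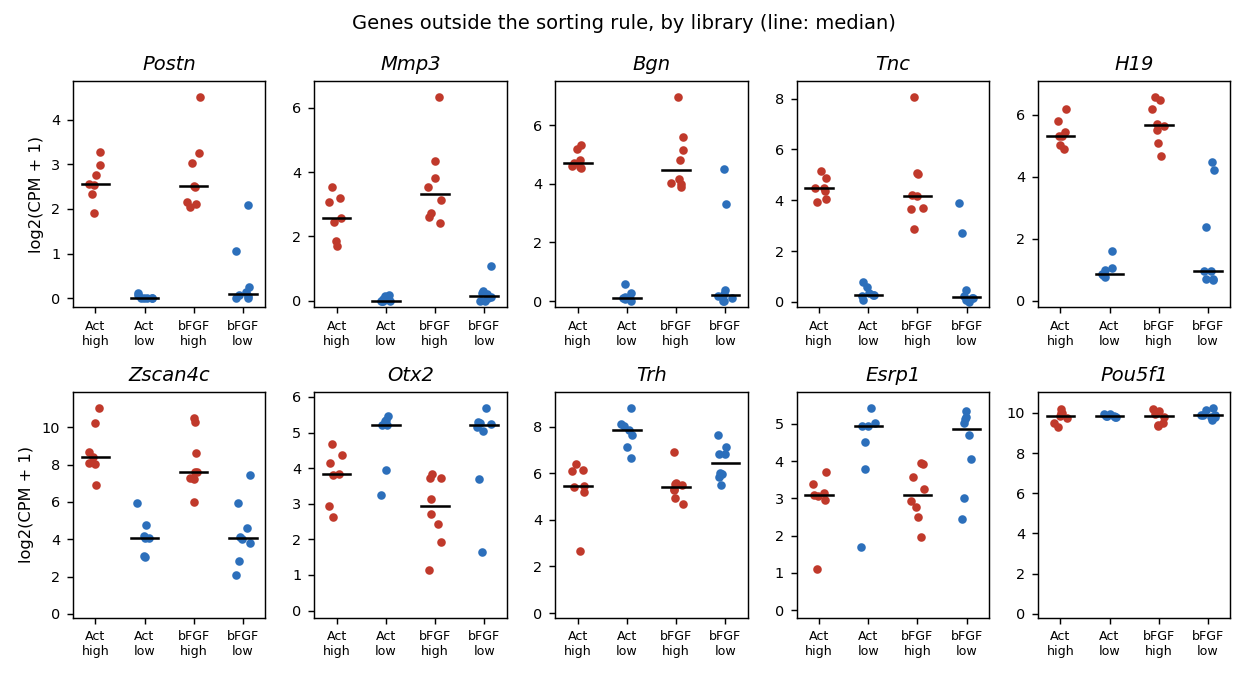
Level of 10 genes (log2(CPM + 1), y axis, scaled for each panel) in each high and low library with Activin A and with bFGF (x axis), with a line at each group's median. Postn, Mmp3, Bgn, Tnc, H19 and Zscan4c lay higher in high libraries, Otx2, Trh and Esrp1 lay lower, and the Pou5f1 medians of the 4 groups were 926 to 944 CPM.

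The Bix01294 library with bFGF stood apart for several of these genes. Bix01294 is an inhibitor of the histone methyltransferase G9a. In that library Ptgs2, which encodes cyclooxygenase 2, was at 283 CPM, against 5.63 CPM or less in the other high libraries with bFGF, Cd44 was at 140.4 CPM and Igf2 at 210.6 CPM. Ptgs2 was fitted at 4.76 ± 0.79 with this library and at 2.74 without it, and was called in both. Without the low BAPTA-AM library with bFGF it was at 5.45.

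Of 17 fibroblast receptor and surface protein genes, 8 were called higher and 0 lower, with a median of 0.82. Cd44, a hyaluronan receptor, was at 2.23 to 7.82 CPM in high against 0.248 to 0.490 CPM in low libraries with Activin A (3.59 ± 0.57, and 2.45 without the Bix01294 library and 4.43 without the low BAPTA-AM library with bFGF). Pdgfra, a PDGF receptor of mesenchymal cells that also marks primitive endoderm, was at 4.58 to 11.8 CPM in high against 0.279 to 0.829 CPM in low libraries with Activin A. With bFGF Pdgfra was at 5.82 to 16.9 CPM in high against 0.345 to 21.8 CPM in low libraries, and its change was 2.61 ± 0.45, or 3.501 without the low BAPTA-AM library. Cd248 (2.49), Mrc2 (2.48) and Pdgfrb (2.30) were called as well, while Thy1 (0.63) was not.

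Of 15 mesenchymal transcription factor genes tested, 7 were called higher and 0 lower, with a median of 0.96. Prrx1, a homeobox gene of limb and skin mesenchyme, was at 5.196 to 10.8 CPM in high against 1.21 to 3.91 CPM in low libraries with Activin A, and at 4.86 to 33.2 against 1.23 to 4.99 CPM with bFGF (1.83 ± 0.26). Runx1 (2.43), Tbx15 (1.67) and Osr2 (1.64) were also called, while Runx2 was at 0.29 and Zeb1 at 0.38. Genes were tested if they reached 1 CPM in at least 5 of the 47 libraries. Osr2 only just did, and was not tested when any 1 of 5 libraries was left out. With a filter of 7 libraries, 6 of 14 mesenchymal transcription factor genes tested were called higher. Of these genes 3 were called without the Docetaxel, Wnt agonist and Bix01294 libraries.

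Among 17 contractile genes known as SRF or YAP targets, 6 were called higher and 0 lower, with a median of 0.25. They included the smooth muscle actin gene Acta2, at 6.72 to 16.8 CPM in high against 0 to 0.186 CPM in low libraries with Activin A (3.89 ± 0.74), Ankrd1 (2.84), Myl9 (2.14) and Tagln (2.09). Without the low BAPTA-AM library with bFGF, Acta2 was at 4.82 and Tagln at 2.91. Within Activin A 6 of them were called, and within bFGF 2. Ankrd1 only just passed the filter on low counts, and was not tested when any 1 of 4 libraries was left out. With a filter of 7 libraries, 5 of 16 contractile genes tested were called higher. The widely expressed cytoskeletal genes Flna (−0.26), Vcl (−0.21) and Tpm1 (0.12) were not called.

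Of 17 genes of TGF-beta family ligands, receptors and targets, 5 were called higher and 0 lower, with a median of 0.44, and 3 were called without the Docetaxel, Wnt agonist and Bix01294 libraries. The type II receptor gene Tgfbr2 was at 2.35 to 6.00 CPM in high against 0.186 to 0.942 CPM in low libraries with Activin A, and at 3.35 to 27.7 against 0.430 to 4.21 CPM with bFGF (2.82 ± 0.31, adjusted p = 8.6e-09). Ltbp2 (2.16), Ltbp3 (1.65), Tgfbr3 (1.35) and the ligand gene Tgfb2 (1.25) were the others. The Activin receptor genes Acvr1b (0.10) and Acvr2a (0.26) were not called. Of 6 nodal and Lefty genes, which respond to Activin A and Nodal signalling, 0 were called, and Lefty1 was at −0.70 ± 0.41 (adjusted p = 0.15). In the low SB202190 library labelled Activin A, Lefty1 was at 0.139 CPM and Lefty2 at 0.325 CPM. The other high and low libraries with Activin A had 31.5 to 174 CPM of Lefty1, and those with bFGF 0.361 to 19.6 CPM.

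Basement membrane genes changed in part. Of 9, 4 were called higher, Col4a2 (2.96), Col4a1 (2.46 ± 0.42), the laminin gene Lamb1 (1.71 ± 0.28) and Lama1 (1.26). All 4 were called within Activin A and 0 within bFGF, where the low BAPTA-AM and Wortmannin libraries enter, but 0 genes were called for a difference between the morphogens. Col4a1 was at 118.2 to 214.4 CPM in high against 8.402 to 14.5 CPM in low libraries with Activin A, and at 76.5 to 234.97 against 6.75 to 382 CPM with bFGF. Without the low BAPTA-AM library with bFGF the changes were 3.27 for Col4a1 and 3.94 for Col4a2.

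**Figure D4:**
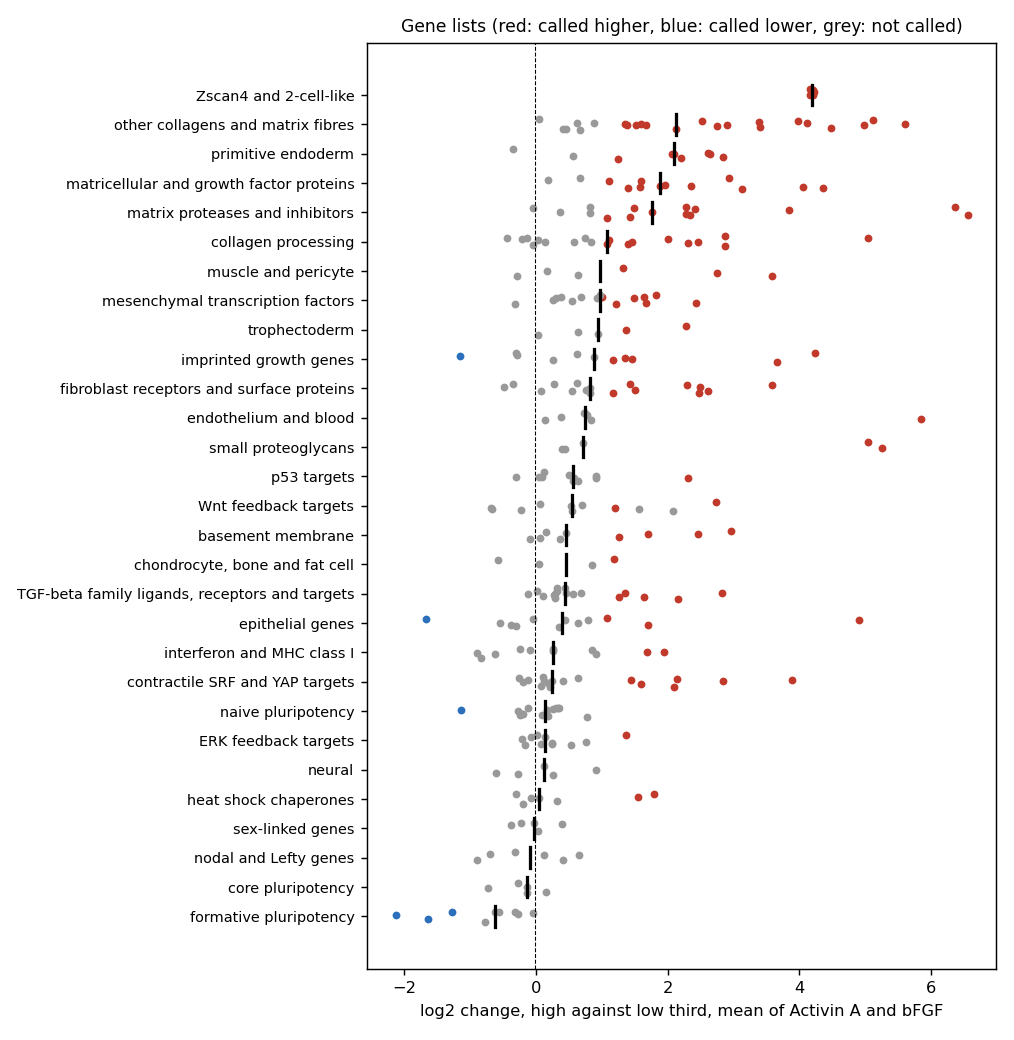
Change of each tested gene in 29 gene lists (log2 of high over low libraries, mean of both morphogens, x axis; one list per line), with genes called higher in red, called lower in blue and not called in grey, and a black bar at each list's median. The matrix lists, the primitive endoderm list and the Zscan4 list lie to the right of 0, and the pluripotency lists lie around or to the left of it.

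None of the core pluripotency genes, which all ES cell states share, passed the test. Pou5f1 was at 624 to 1164 CPM (median 929.9) in high against 877 to 999 CPM (median 926) in low libraries with Activin A, and at 654 to 1161 against 806 to 1207 CPM with bFGF. Its change was −0.13 ± 0.08 (adjusted p = 0.17), and 0 of 5 core pluripotency genes were called. Of 14 genes of naive pluripotency, Dppa3 was called lower (−1.14 ± 0.28) and 0 higher, and Nanog was at 0.34 ± 0.19 (adjusted p = 0.12). The sum of 6 ES cell markers was 2198 to 3130.2 CPM (median 2878.2) in high against 2529 to 3272 CPM (median 2595.4) in low libraries with Activin A. With bFGF the sum was 2226.9 to 3505 CPM (median 2921.5) in high against 2598.8 to 3182.8 CPM (median 2744.1) in low libraries.

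Of 9 formative pluripotency genes, which mark ES cells on their way out of the naive state, 3 were called lower and 0 higher, against 0.756% lower of all genes, with a list median of −0.63. Otx2, a homeobox factor of the epiblast, was at 5.12 to 24.7 CPM (median 13.3) in high against 8.398 to 43.1 CPM (median 36.3) in low libraries with Activin A. With bFGF it was at 1.19 to 13.4 CPM (median 6.72) in high against 2.11 to 50.6 CPM (median 35.8) in low libraries. The Otx2 ranges overlapped with both morphogens, and the change was −1.64 ± 0.37 (adjusted p = 0.0004).

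Dnmt3b, a de novo DNA methyltransferase, was at 53.3 to 273 CPM (median 200.4) in high against 108 to 665 CPM (median 543) in low libraries with Activin A, and at 96.03 to 326 against 147.2 to 623 CPM with bFGF (−1.28 ± 0.29). Vrtn, known in pigs for its effect on vertebral number, had the lowest fitted change of all genes at or above a mean log2 CPM of 1, −2.13 ± 0.61 (adjusted p = 0.0036), with ranges that overlapped. Without the Docetaxel, Wnt agonist and Bix01294 libraries it was at −1.71 (adjusted p = 0.059) and was no longer called. Fgf5 (−0.28) and Pou3f1 (−0.57) were not called.

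Other genes at the lower end were Trh, Esrp1 and Slfn9. Trh, which encodes thyrotropin-releasing hormone, was at 5.37 to 84.1 CPM in high against 98.7 to 443 CPM in low libraries with Activin A, with no overlap, and at 24.9 to 118.3 against 44.5 to 197 CPM with bFGF (−1.70 ± 0.32). Its median in R1 mock libraries, which had the highest scores, was 440.2 CPM. Esrp1, an epithelial splicing factor, had a change of −1.67 ± 0.41 (adjusted p = 0.0009), with medians of 7.57 CPM in high against 29.7 CPM in low libraries with Activin A. Slfn9 was at −1.65 ± 0.26, and Tgtp2, an interferon-induced GTPase gene, at −2.07 ± 0.32.

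The imprinted gene pair H19 and Igf2, which are active in embryonic mesenchyme, went up with the matrix genes. H19, a long noncoding RNA, was at 28.6 to 71.1 CPM (median 38.99) in high against 0.697 to 2.07 CPM (median 0.835) in low libraries with Activin A, and at 24.5 to 92.997 against 0.586 to 20.99 CPM with bFGF. The H19 groups separated with both morphogens, and the change was 4.24 ± 0.44 (adjusted p = 4.1e-09). Igf2, a fetal growth factor, was at 25.8 to 57.05 CPM against 0.814 to 4.93 CPM with Activin A (3.65 ± 0.49). Of 11 imprinted genes, 5 were called higher, the others being Dlk1 (1.46), Plagl1 (1.36, lost without the high PD173074 library with Activin A or the high CHIR99021 library with bFGF) and Ndn (1.16), and Meg3 was called lower. Meg3, a noncoding RNA of the Dlk1 region, was at 128.02 to 389 CPM in high against 304 to 495 CPM in low libraries with Activin A (−1.16 ± 0.18). Without the Docetaxel, Wnt agonist and Bix01294 libraries 3 of the 11 were called higher and 0 lower.

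H19 was also the gene most like the score across the sorted libraries. As a description, its mean Pearson r with the score over the 23 Activin A and 24 bFGF libraries was 0.986, followed by Bgn (0.979), Col12a1 (0.978), Col6a1 (0.974) and Col4a2 (0.972). The points share libraries and fall into bands. The lowest were Zfp1 (−0.907), Magohb (−0.886) and Msrb2 (−0.872).

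All 6 Zscan4 genes tested were called higher, with a median of 4.19. Zscan4c was at 1190.2 CPM with Docetaxel and 2080.1 CPM with Wnt agonist and at 117.15 to 415 CPM in the other 5 high libraries with Activin A, against 7.16 to 61.1 CPM in low libraries. With bFGF it was at 1444 CPM with Wnt agonist, 1229 CPM with Docetaxel and 62.9 to 393 CPM in the other 6 high libraries. In low libraries with bFGF it was at 175 CPM with Wortmannin and 61.7 CPM with BAPTA-AM, and at 3.25 to 22.9 CPM in the other 6. The groups did not overlap with Activin A and overlapped with bFGF, and the change was 4.20 ± 0.59 (adjusted p = 4.9e-07). Without the Docetaxel, Wnt agonist and Bix01294 libraries all 6 genes were called, with a median of 2.94. R1 mock libraries, whose collagen genes were highest, had a median of 29.01 CPM of Zscan4c.

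The Zscan4 copies are nearly identical, so reads can be split or shared between them and a value for 1 copy is uncertain. The upstream 150 bases (GRCm38.p6) of Zscan4c (chr7:11005595-11005744, plus strand) and Zscan4d (chr7:11166149-11166298, minus strand) are shown with a CCAAT in capitals. It lies 42 bases before the RefSeq start of Zscan4c and 53 bases before that of Zscan4d. Shifted by 11 bases, 96.4% of the aligned bases were the same. These windows lie before the RefSeq start, so their likeness does not show how alike the transcripts are or how reads were assigned.
Zscan4c: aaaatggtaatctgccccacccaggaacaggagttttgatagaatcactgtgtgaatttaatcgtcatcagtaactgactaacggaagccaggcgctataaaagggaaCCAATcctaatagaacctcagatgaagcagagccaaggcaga
Zscan4d: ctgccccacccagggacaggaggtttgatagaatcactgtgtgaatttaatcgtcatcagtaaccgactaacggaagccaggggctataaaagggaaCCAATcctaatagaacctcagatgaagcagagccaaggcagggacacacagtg

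Markers of other cell types were read in the same libraries. The summed level of 8 fibroblast markers that did not sort the libraries was 23.1 to 47.4 CPM in high against 5.66 to 10.0 CPM in low libraries with Activin A, and 25.9 to 108 against 4.29 to 41.8 CPM with bFGF. In high libraries 7 of the 8 had a median of at least 1 CPM with either morphogen, and in low libraries 3 with Activin A and 2 with bFGF. Twist2 was the one under that level in high libraries. Summed skeletal muscle markers reached 1.45 CPM in high and 0.116 CPM in low libraries with Activin A, and 1.67 CPM in high and 0.180 CPM in low libraries with bFGF, with Myod1 and Myf5 at 0 in all low libraries with Activin A. Summed endothelial markers were 124.5 to 182.2 against 104.3 to 132.04 CPM with Activin A and 111.2 to 213 against 91.7 to 186.98 CPM with bFGF. Most of this sum was Pecam1 and Tek, with medians of 89.1 against 84.8 CPM and 45.1 against 24.3 CPM with Activin A. Cdh5 (4.55 against 1.93 CPM) and Kdr (2.59 against 1.13 CPM) were low there. Summed blood markers were 7.598 to 14.4 against 7.84 to 13.3 CPM with Activin A and 7.66 to 42.6 against 3.94 to 17.1 CPM with bFGF. Nearly all of this sum was Cd68, with medians of 12.7 against 9.47 CPM with Activin A. The medians there were 0.227 against 0.0879 CPM for Ptprc and 0.0469 against 0 CPM for Csf1r. Summed cartilage markers were 8.33 to 22.6 CPM (median 17.5) against 3.20 to 11.3 CPM (median 8.52) with Activin A and 9.62 to 28.9 CPM (median 12.6) against 5.11 to 16.2 CPM (median 7.13) with bFGF. Summed neural markers had medians of 11.3 against 14.9 CPM with Activin A and 11.8 against 18.7 CPM with bFGF. Summed epithelial markers had medians of 0.656 against 0.248 CPM with Activin A and 0.495 against 0.319 CPM with bFGF, and bone markers were under 0.25 CPM in median in all 4 groups. The macrophage gene Lyz2 was called higher (5.84 ± 0.58, and 6.50 without the low BAPTA-AM library with bFGF) at 0.546 to 3.46 CPM in high against 0 to 0.116 CPM in low libraries with Activin A. Lyz2 was the 1 gene called higher of 7 endothelial and blood genes tested, with a list median of 0.74, beside 8.76% of all genes. The blood genes Ptprc, Csf1r and Cd14 were too low to be tested.

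Primitive endoderm genes, of the extraembryonic lineage that also lays down type IV collagen and laminin, were for the most part higher as well. Of 9 tested, 7 were called higher and 0 lower, with a median of 2.10. Their called members included Hnf4a, at 19.2 to 314 CPM in high against 6.89 to 25.3 CPM in low libraries with Activin A (2.85 ± 0.39), Gata6 (2.65 ± 0.49), Sox17 (2.20 ± 0.52) and Dab2 (2.10). Within Activin A 7 were called and within bFGF 2. The summed primitive endoderm markers Gata4, Gata6, Sox17 and Sox7 were 9.22 to 19.9 CPM in high against 2.14 to 7.73 CPM in low libraries with Activin A, and 8.76 to 27.2 against 2.58 to 46.7 CPM with bFGF. Of these Sox7 did not rise, with medians of 1.078 against 1.076 CPM with Activin A and 1.37 against 1.32 CPM with bFGF. Its top value with Activin A was 4.59 CPM in low libraries, against 1.48 CPM in high ones. Sox17 reached 7.82 CPM in the low BAPTA-AM library with bFGF, without which the changes were 3.35 for Sox17, 3.39 for Gata6 and 3.12 for Dab2. The part of these cell types in the matrix results was not tested.

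The other lists ranged from shares near that of all genes to higher ones, beside 8.76% higher and 0.756% lower of all genes tested. Cspg4 (3.58), Myh11 (2.75) and Des (1.31) were called higher of 6 muscle and pericyte genes, and Krt7 (2.27, and 2.95 without the low Genistein library with bFGF) and Gata2 (1.37, and 2.00 without the low BAPTA-AM library with bFGF) of 5 trophectoderm genes. In these lists 1 of 5 and 1 of 4 genes tested were called without the Docetaxel, Wnt agonist and Bix01294 libraries. Of 12 epithelial genes Krt5, Krt19 and Krt18 were called higher and Esrp1 lower, and without those libraries 0 were called higher and 1 lower. The Krt5 medians were 0.0938 CPM in high against 0.0860 CPM in low libraries with Activin A, and the top high library had 8.96 CPM. Krt5 only just passed the filter on low counts, and was not tested when any 1 of 5 libraries was left out. With a filter of 7 libraries, 2 of 11 epithelial genes tested were called higher and 1 lower. Krt18 (1.0815) was not called without the Bix01294 library alone, and Krt19 (1.70) was at 2.52 without the low BAPTA-AM library with bFGF.

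Acan (1.19) was called higher of 4 cartilage, bone and fat genes, T (2.73) and Rnf43 (1.20) of 11 Wnt feedback genes, and Tap1 (1.94) and B2m (1.68, and 1.00 without the Bix01294 library) of 11 interferon and MHC class I genes. T only just passed the filter on low counts, and was not tested when either of 2 libraries was left out. With a filter of 7 libraries, 1 of 10 Wnt feedback genes tested was called higher. Hspa1a (1.79) and Hspa1b (1.55) were called of 7 heat shock chaperone genes, and neither without the Bix01294 library. Of 11 ERK feedback genes Fosl1 (1.36) and of 11 p53 targets Fas (2.30) was called, a share near that of all genes. Without the Docetaxel, Wnt agonist and Bix01294 libraries 0 genes of the Wnt, ERK, p53, interferon and heat shock lists were called higher. Of 5 neural genes and 5 sex-linked genes 0 were called.

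**Figure D5:**
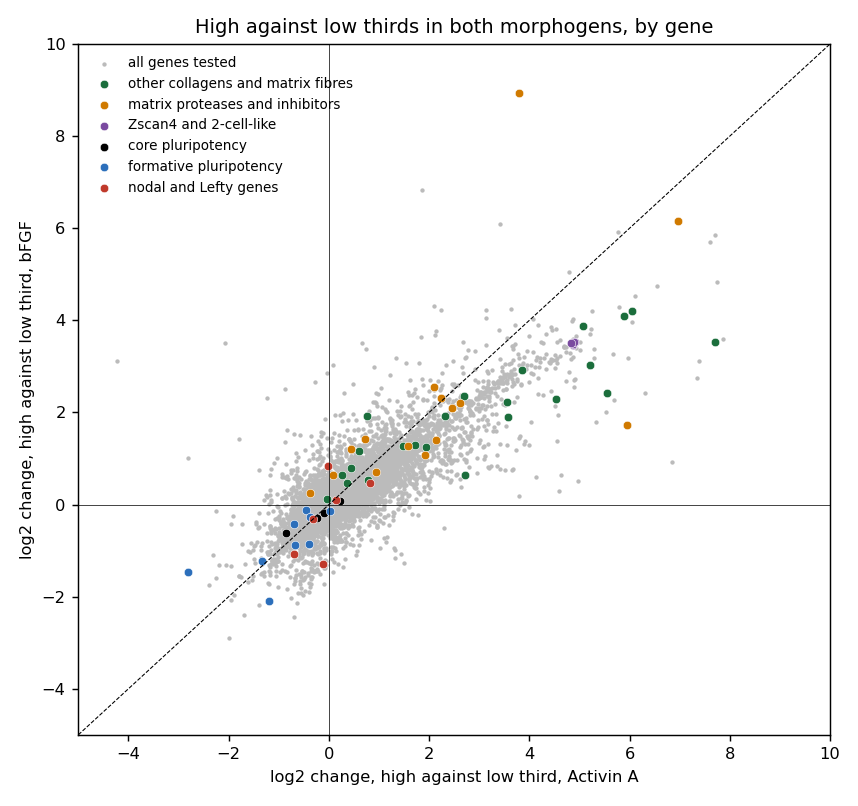
Change between high and low libraries of each tested gene within Activin A (log2, x axis) and within bFGF (log2, y axis), with genes of the main lists in colour and a dashed line where both changes are equal. Matrix and Zscan4 genes lie in the upper right, most of them under the dashed line, and 880 genes were called with both morphogens in the same direction against 0 in opposite directions.

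The 9 compounds whose libraries lay in opposite bands allow the same compound to be set against itself, although the morphogen then differs as well. Bgn, Tnc, Lox, Postn, Mmp3, Col5a1, H19, Igf2 and Zscan4c were higher in the library over 3.5 than in the library under 1.5 for 9 of 9 compounds. The median difference in log2(CPM + 1) was 3.94 for H19, 3.46 for Igf2 and 3.70 (1.21 to 5.24) for Zscan4c. Trh (median −1.82), Slfn9, Tgtp2 and Meg3 (−1.05) were lower for 9 of 9, Otx2 for 8 and Dnmt3b for 7. Vrtn was lower for 5 and higher for 4. Pou5f1 was higher for 8 (median 0.21) and Sox2 lower for 7 (median −0.084). The score picked these pairs, and most of the genes were picked for their calls in the same libraries. A shared direction thus follows in part from that choice and adds no support to the calls. The share of all genes with 9 of 9 was not counted. These values share libraries with the comparison above and are a description.

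The same score was then applied to blocks of libraries that had not been used to form the groups. With 4 high against 4 low libraries of 14 labelled JM8.N4, another mouse ES cell line, with Activin A, 222 of 14445 genes (1.54%) were called higher and 18 (0.125%) lower. Of the 1345 genes called higher in R1, 899 were tested there, 12.7% of these were called higher, and the median change was 0.66. With 7 against 7 of 23 R1 libraries in N2B27 alone, 505 (3.47%) were called higher and 33 (0.227%) lower, and 282 of 845 of the R1 genes (33.4%) were called higher, with a median of 0.98. With 6 against 6 of 18 JM8.N4 libraries with bFGF, 0.783% of 14305 genes were called higher and 0 lower, and 95 of 776 (12.2%) of the R1 genes were called higher. The scores were 4.33 to 4.58 in high against 0.215 to 0.422 in low JM8.N4 libraries with Activin A, 1.41 to 2.33 against 0.128 to 1.02 in R1 libraries in N2B27, and 0.926 to 3.32 against 0.0657 to 0.734 in JM8.N4 libraries with bFGF.

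Of the further collagen and matrix fibre genes, 12 of 23 tested were called higher in JM8.N4 with Activin A, 5 of 18 in R1 in N2B27 and 5 of 17 in JM8.N4 with bFGF, and 0 lower. Of the collagen processing genes 3 of 17, 4 of 15 and 3 of 16 were called higher in the same order, of the matricellular genes 6 of 13, 1 of 11 and 2 of 11, and of the matrix protease genes 6 of 12, 1 of 10 and 0 of 11. Bgn was called in JM8.N4 with Activin A (4.85) and not in R1 in N2B27 (1.20, adjusted p = 0.25). The genes called in all 3 blocks included the following. Tnc changed by 8.02 in JM8.N4 with Activin A, 2.78 in R1 in N2B27 and 4.22 in JM8.N4 with bFGF, and Thbs1 by 6.61, 1.92 and 3.94 in the same order. Col12a1 changed by 7.09, 1.43 and 3.52, and Col5a1 by 3.22, 1.20 and 1.39. H19 was called in both JM8.N4 blocks, at 2.14 with Activin A and 2.25 with bFGF, but was at 0.55 in R1 in N2B27 and not called there. Igf2 was called in JM8.N4 with Activin A (3.34) and was at −0.28 in R1 in N2B27.

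Of the 6 Zscan4 genes 0 were called in JM8.N4 with Activin A, 4 in R1 in N2B27 and 6 in JM8.N4 with bFGF, with medians of 3.51, 2.15 and 5.15. Zscan4c was at 3.47 in JM8.N4 with Activin A (adjusted p = 0.089), 2.10 in R1 in N2B27 (adjusted p = 0.054) and 5.08 in JM8.N4 with bFGF (adjusted p = 0.040, called). Mmp3 did not exceed 0.108 CPM in any of the JM8.N4 Activin A libraries compared. Of the genes called lower in the R1 comparison, 0 were called lower in JM8.N4 with Activin A, 8 (7.62% of those tested) in R1 in N2B27 and 0 in JM8.N4 with bFGF. Otx2 was at −0.96, 0.11 and 0.06 in these blocks, none of them called.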

How the data were processed

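RNA-seq counts per gene of 208 libraries were deposited by the authors as whole numbers, 1 table per library. Per the submitters' processing notes TopHat 1.3.3 and the mouse build mm9 were used. How reads were counted, with which annotation and whether by strand, is not given in the sources used here. Labels state 30 h with the small molecule, although 1 label field is named for 36 h. Of 21761 gene IDs, 146 had no symbol (0.579% of counts).

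From the counts, CPM were computed with library totals. Genes with at least 1 CPM in at least 5 of the 47 sorted libraries were fitted with edgeR 4.0.16 (R 4.3.3; TMM scaling, quasi-likelihood test, 41 residual degrees of freedom), with a term for each group (high, middle, low) within each morphogen. This left 15348 genes besides the 4 sorting genes. Of these, 116 were called lower for the mean of both morphogens, 107 within Activin A and 167 within bFGF. Other blocks were fitted separately. DESeq2 1.42.0 and limma 3.58.1 (voom) were alternatives. A called gene had a Benjamini-Hochberg adjusted p under 0.05 and at least a 2-fold change, and for the mean contrast the same sign with both morphogens. Fold changes are log2, high over low, with the SE taken from the quasi-likelihood F. On simulated counts 100% of genes changed by 2 on the log2 scale and 99% of those changed by 1.5 were called, and 0 unchanged ones. Those counts were drawn independently with the same spread for every gene, and the simulated libraries were not sorted by their own values. The simulation thus checks the fit and does not cover calls made after sorting, or single libraries with extreme values.

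The genes named are the 12 highest and 12 lowest called genes whose mean log2 CPM reached 1, members of gene lists, and a few chosen after their values were seen. The members and lists were chosen with earlier results of these data known. Nothing in the labels says that libraries came from separate cultures, and each is a different compound, so p-values rest on the spread between these libraries. The groups were also formed from these libraries' own values. A small p-value of a gene that follows the score is thus in part a result of the sorting. Floors cover counting error only, while the SE after ± also holds the spread between these libraries. Upstream sequences are from RefSeq (GRCm38.p6), matched by symbol for 6 of 8 genes looked for. Col1a1 and Dcn are named only.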

Additional observations from a re-analysis of the deposited data

Results flagged for a closer look

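By Dixon's criterion a library stood apart in 26 of the groups of 7 or 8 libraries. These groups come from 29 measures in 2 morphogens and in high and low libraries. The criterion is set to flag about 1 in 20 groups of values with a normal spread, and that rate does not hold here. The score and the sorting genes formed the groups. The other measures are the 12 highest and 12 lowest called genes, picked for their changes in these same libraries. The 26 flags are thus no test and only describe the values. The values are log2(CPM + 1), and since each library is a different compound, a compound and its library cannot be told apart.

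The KAAD-Cyclopamine library was the highest of the low libraries with Activin A in Col6a1 (0.5749) and Mmp13 (0.2024), and the lowest in 4933427D06Rik (1.116). Given as values with no test, it was also the highest there in score (1.158, next 0.3216), Col1a1 (1.282), Col1a2 (1.282) and Col3a1 (2.071). The Bix01294 library was the highest of the high libraries with bFGF in Mmp13 (8.147, next 1.906), Ptgs2 (8.149, next 2.73), Tnc (8.05) and Pappa (5.331). Its value of the sorting gene Dcn (5.676), given with no test, was also the highest there.

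The PD173074 library was the lowest of the high libraries with Activin A in Trh (2.671, next 5.181), Esrp1 (1.096), Gna14 (1.296) and Tgtp2 (0.6285). The BAPTA-AM library was the highest of the low libraries in Cyp2t4, a cytochrome P450 gene, both with Activin A (3.331) and with bFGF (5.706, next 1.676). It was also the highest in Ptgs2 with Activin A (0.7131) and with bFGF (1.981) and in Mmp13 with bFGF (0.3793).

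The Wortmannin library was the highest of the low libraries with bFGF in Mmp3 (1.083) and the lowest in Glod5 (1.34). Single values were Glod5 with SB202190 (3.591, highest) and Gstt1 with BAY 11-7082 (1.916, lowest) among low libraries with Activin A, and Trh with CHIR99021 (6.898, highest) among high libraries with bFGF.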

How the results depend on the processing

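The number of called genes, 1461 for the mean of both morphogens, 1720 within Activin A and 1194 within bFGF, moved by more than 1.5 times in these settings. With no filter on low counts it was 2754 for the mean and 1830 within bFGF. When groups were widened to 50% of the libraries it was 952 and 618, and when narrowed to 25% it was 1867 within bFGF. With the small molecule as a block term it was 470 within bFGF. Leaving out the Docetaxel, Wnt agonist and Bix01294 libraries, chosen after seeing the data, gave 645 for the mean, 805 within Activin A and, rounded, 1.4e+02 within bFGF. Leaving out each of the 30 libraries in turn gave 1280 to 1586, 1250 to 1965 and 886 to 1477, the last lowest without Bix01294 and highest without BAPTA-AM.

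Each of the 24 genes with the largest changes was recomputed under 8 alternatives. All kept their direction and call except Vrtn, which lost the call once, and Cyp2t4, which lost it in 6, and in 2 of these changed sign, with the small molecule as a block (0.052) and on the continuous score (0.0039). Cyp2t4 also lost its call without either BAPTA-AM library (−0.39 without that of bFGF). No paired analysis was possible because the groups share no replicate numbers, and the block above is the compound, which some libraries of the 2 morphogens share. Low genes limit precision, since 3 counts were up to 0.215 CPM.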

Other observations

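Other gene families that are known to be expressed with Zscan4 in mouse ES cultures were also higher in high libraries. They were chosen after their values were seen. Of 25 Pramel genes tested, 19 were called higher, beside 8.76% of all genes, with a median change of 3.86 (log2), and Pramel19 was at 9.74 to 249.7 CPM in high against 0.325 to 5.00 CPM in low libraries with Activin A (4.45 ± 0.63). All 4 Usp17l genes (median 3.61) and all 6 Tdpoz genes (median 3.54) tested were called higher. Tmem92 (4.33), Zfp352 (3.47) and Gm4340 (3.70) were called higher too. Gm4340 reached 4090.5 CPM in high libraries with Activin A and was at most 206.2 CPM in low ones. Members of these families are near copies of each other, so values for single genes are uncertain.

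In the imprinted Dlk1–Dio3 region genes were called in both directions, also chosen after their values were seen. The noncoding RNAs Meg3 (−1.16), Rian (−1.12) and Mirg (−1.08) and the protein-coding gene Rtl1 (−1.08) were called lower, and the protein-coding genes Dlk1 (1.46) and Dio3 (1.67) were called higher. Rian was at 104.7 to 275 CPM in high against 341 to 491 CPM in low libraries with Activin A, and at 127.3 to 281 against 115.4 to 568 CPM with bFGF.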
